A study of Mus musculus with 39 samples.

Results

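Binding of the glucocorticoid receptor (GR) after dexamethasone (Dex) was compared between 7438 Afos mouse mammary cells and parental 7438 cells, using the lists of called GR sites. The comparison takes in the 2 Afos lists of 8873 sites (replicate 1) and 5136 sites (replicate 2) and the 1 parental list of 12084 sites. Together these are 26093 of the 110608 sites in the 24 lists used, which come from 39 samples of a ChIP-seq study of GR and the estrogen receptor (ER). The study asked how the receptors occupy the genome when Dex, a synthetic GR ligand, and estradiol (E2), the natural ER ligand, are given alone or together.

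The parental 7438 cells carry a GFP-GR fusion and a Cherry-ER fusion, both under a tetracycline-regulated promoter. The 7438 Afos cells carry the same receptor fusions, and their Afos is also under such a promoter. In both, the fusions were induced by withdrawing tetracycline before the hormone was given. Both were then treated with 100 nM Dex for 30 min, and GR was precipitated with the same antibody cocktail. The labels do not say whether the Afos cells are 1 clone or a pool. The second parental Dex replicate is not analysed here.

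GR is held inactive in the cytoplasm until a glucocorticoid binds it, then enters the nucleus and binds DNA, largely in chromatin that other factors already keep accessible. AP-1, dimers of the Fos and Jun families, is one such factor at many GR sites of mammary cells. The name Afos is not explained in the labels. In the field, A-Fos is a Fos variant with an acidic extension that pairs with Jun proteins and blocks their binding to DNA.

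The lists were made in different formats. Parental sites all have a width of 150 bp and a peak tag density of at least 10.0. Afos sites have widths from 251 bp (medians 598 and 570 bp) and peak tag densities from 1.41 and 1.42. Tag density is the authors' signal of precipitated reads over a site, and its scaling is not stated. It is therefore used here to rank sites within their own list and to cut that list into deciles, 10 equal parts of which decile 10 holds the strongest sites. The exception is a check that applies the lower limits of the parental list to the Afos lists, which takes their scales as alike. A site counts as found in another list where they overlap by at least 1 bp. The format of a list and the cell line behind it cannot be told apart. With 1 list against 2, a two-sided exact test over lists cannot give a p below 0.667, so none is given. Intervals are exact binomial 95% intervals that cover counting error only, since sites of a list are not independent replicates.

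Most parental Dex sites were found in Afos replicate 1 and a smaller share in replicate 2. Replicate 1 held 7230 of the 12084 parental sites (59.8%) and replicate 2 held 4868 (40.3%), a mean of 50.1% ± 13.8 (SD, n = 2). At least 1 Afos list held 7307 of them (60.5%, 59.6 to 61.3%), both held 4791 (39.6%) and neither held 4777 (39.5%). Almost all of the difference between the Afos lists ran one way, with 2439 parental sites in replicate 1 only and 77 in replicate 2 only. The median parental tag density was 41.8 at the sites in both lists and 14.8 at the sites in neither. At sites in neither list the nearest Afos site lay a median of 25.8 kb away, and 7.49% had one within 1 kb.

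Retention followed the strength of the parental site over its whole range. In the lowest decile, with tag densities from 10.0 to 11.6, replicate 1 held 26.2% (23.8 to 28.8%) of 1209 sites and replicate 2 held 7.69% (6.25 to 9.34%). In the fifth decile the lists held 49.8% and 23.5%. In the eighth they held 88.4% and 66.2%. In the highest decile, from 72.3 to 759, they held 99.8% and 99.1% of 1208 sites. The lists thus differed most in the middle of the range and met at the top. The 823 strongest parental sites were each found in both Afos lists.

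**Figure D1:**
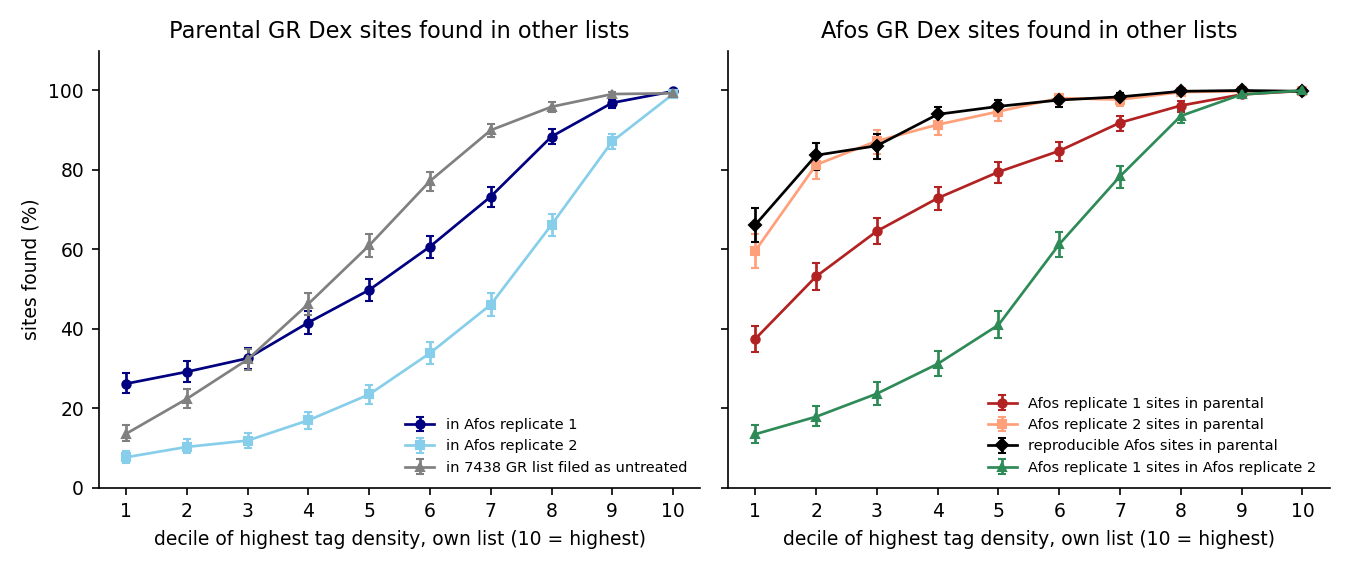
Share of sites found (%, y axis) by decile of highest tag density within their own list (x axis); left, parental GR Dex sites found in either Afos Dex list or in the parental GR list filed under untreated; right, sites of either Afos list and those shared by both found in the parental list, and Afos replicate 1 sites found in replicate 2. Bars are exact 95% intervals for counting; every curve drawn passes 99% in decile 10, and in decile 1 their shares run from 7.69% to 66.2%.

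A fall of this kind towards weak sites was also present between the Afos lists themselves. Of Afos replicate 1 sites, 13.5% (11.3 to 15.9%) in the lowest decile and 100% in the highest were found in replicate 2. To set the cell lines side by side at equal length, each list was reduced to its 5136 strongest sites. Afos replicate 2 then held 72.4% (71.1 to 73.6%) of the parental sites and 80.3% (79.2 to 81.4%) of the Afos replicate 1 sites. The parental list therefore shared fewer of its strong sites with Afos replicate 2 than the other Afos replicate did. At this length Afos replicate 1 held 74.1% (72.9 to 75.3%) of the parental sites, close to the 72.4% in replicate 2. The 13.8-point spread of retention given above is from lists of full, unequal length. With 1 parental list, the spread between parental lists is unknown. Parental sites were also compared with a second GR list of 7438 cells. This list is filed under untreated, but its name says that both hormones were given. The 7438 GR list filed under Dex+E2, whose name also contradicts its label, has 143 sites. The list filed under untreated has 9503. It held 13.6% of parental Dex sites in the lowest decile, 61.0% in the fifth and 99.3% in the highest. In deciles 1 and 2 it held fewer than Afos replicate 1, and in deciles 4 to 9 it held more than either Afos list.

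The strongest sites show the agreement at the top of the lists. The parental site of highest tag density lies on chromosome 17 (28649867 to 28650017, mm9) with a density of 759, and it falls in the strongest site of both Afos lists (621 and 360.3 in their own units). The parental sites of rank 2 to 6, with densities from 744 to 623, ranked between 5 and 23 in the Afos lists. All 6 were also in the Afos GR lists of cells given Dex and E2 (Dex+E2) and in the 7438 GR list filed under untreated. So were nearly all parental sites of decile 10, with 99.8% in at least 1 Afos Dex+E2 list and 99.3% in the 7438 list.

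The strongest parental sites missing from both Afos lists began further down. The first, of rank 824, lies on chromosome 11 (3053824 to 3053974) with a density of 94.2, and the nearest Afos site was 13.3 kb away. The next lies on chromosome 15 (61378246 to 61378396) with a density of 73.4 and no Afos site within 61.0 kb. The third, on chromosome 4 (58301726 to 58301876, density 72.1), was missing with Dex but present in both Afos Dex+E2 GR lists. The other 3 had densities of 68.8, 67.6 and 58.5, and 2 of these lay within about 1 kb of an Afos site (1.05 and 0.689 kb). All 6 were present in the 7438 GR list filed under untreated, with densities from 39.7 to 52.5 in the units of that list. They lie in deciles 9 and 10, of which that list held 99.1% and 99.3% of all parental sites.

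Distance to the next GR site showed little when all parental sites were pooled. Sites with another parental site under 1 kb away were found in at least 1 Afos list in 64.6% of cases (62.3 to 66.9%). The share was 58.8% at 1 to 5 kb, 59.1% at 5 to 20 kb, 59.4% at 20 to 100 kb, 62.5% at 100 to 500 kb and 66.7% (59.3 to 73.4%) at 500 kb or more. Sites with another within 5 kb, called clustered here, were found 1.8 points less often than sites with none within 100 kb, called isolated (61.2% of 4309 against 63.0% of 1723). The sign of that pooled difference was not the same in both lists (-1.25 points in replicate 1, 0.601 in replicate 2), so the pooled difference has no fixed sign across the lists.

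Clustered sites were, however, stronger than isolated ones. Their median tag density was 24.6 against 16.7, 14.2% of them against 4.06% were in the highest decile, and 6.68% against 15.8% in the lowest. Compared within deciles of strength, clustered parental sites were found less often than isolated ones. In the lowest decile 17.4% (13.2 to 22.2%) of 288 clustered and 37.7% (32.0 to 43.8%) of 273 isolated sites were in at least 1 Afos list. In the fifth decile the shares were 44.9% of 408 and 68.0% of 172. In the eighth they were 85.9% and 96.0%, and in the highest decile all 611 clustered and all 70 isolated sites were found.

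**Figure D2:**
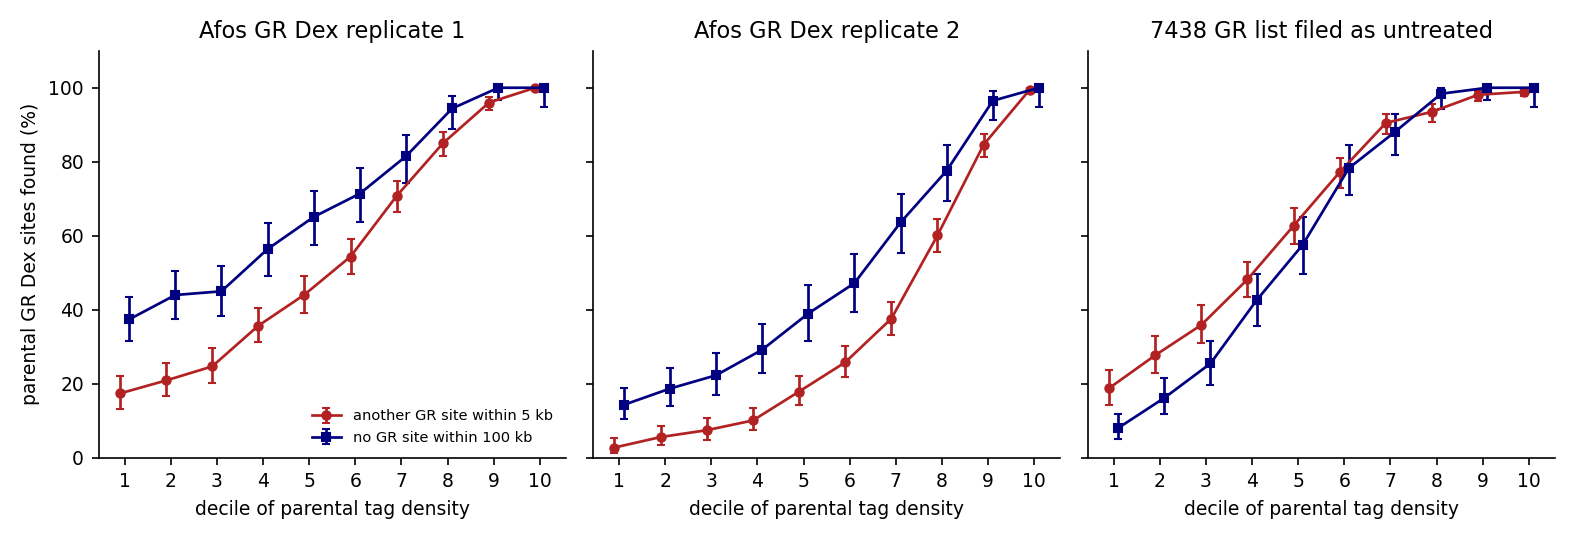
Share of parental GR Dex sites found (%, y axis) by decile of parental tag density (x axis), for clustered sites (another parental site within 5 kb) and isolated sites (none within 100 kb), in Afos Dex replicate 1, Afos Dex replicate 2 and the 7438 GR list filed under untreated. Bars are exact 95% intervals for counting; in both Afos lists the isolated sites lie above the clustered ones in deciles 1 to 9, and in the 7438 list filed under untreated the order is the opposite in deciles 1 to 5.

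Averaged over the deciles, clustered sites were found 14.6 points less often in replicate 1 and 15.7 points less often in replicate 2. The difference was negative in 9 and in 10 of 10 deciles, with 0 in the highest decile of replicate 1. In replicate 2 the shares in the lowest decile were 2.78% (1.21 to 5.40%) and 14.3%. The same contrast in the 7438 GR list filed under untreated had a mean of 3.69 points with clustered sites higher, and 18.8% against 8.06% in its lowest decile. In the Afos Dex+E2 GR lists the mean was -13.4 points, a value from other libraries that shares the parental list with the Dex comparison. Between the Afos lists, with spacing taken within the own list, clustered sites of replicate 1 were found in replicate 2 a mean of 5.73 points less often. Clustered sites of replicate 2 were found in replicate 1 a mean of 0.885 points more often. In the parental list, clustered Afos sites were found 6.14 (replicate 1) and 1.08 points (replicate 2) more often than isolated ones. Reducing all lists to equal numbers of sites gave -7.83 points, with 8 of 10 deciles negative, and cutting every site to 150 bp gave -21.2 points.

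The same pattern stands in the distance classes once strength is held within 3 equal classes. Among the weakest class, 20.7% (17.7 to 23.9%) of sites 1 to 5 kb from another were found in at least 1 Afos list, 32.9% at 20 to 100 kb and 48.5% (38.2 to 58.8%) at 500 kb or more. In the middle class these shares were 47.7%, 60.2% and 81.0%. In the strongest class they were 92.7%, 94.8% and 100%, the last over 28 sites. Sites under 1 kb from another were found somewhat more often than those at 1 to 5 kb in the lower classes (25.5% and 57.2%). In 35.0% of the 901 pairs of neighbours under 1 kb apart, 1 wide Afos site covered both.

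**Figure D3:**
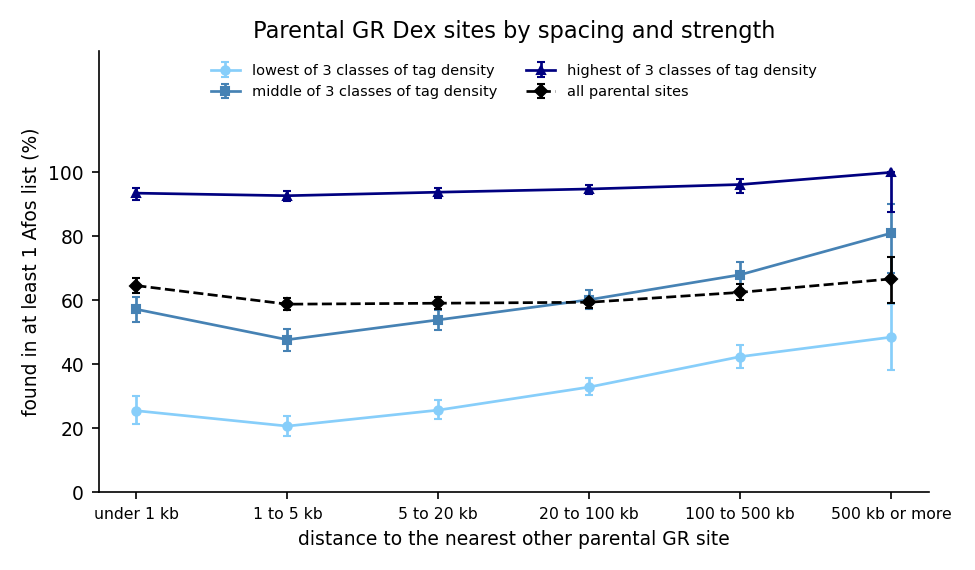
Share of parental GR Dex sites found in at least 1 Afos list (%, y axis) by distance to the nearest other parental site (x axis), for all sites (dashed) and within 3 equal classes of parental tag density. Bars are exact 95% intervals for counting; the pooled line stays between 58.8% and 66.7%, while the weakest class runs from 20.7% at 1 to 5 kb to 48.5% at 500 kb or more.

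Within clusters it was mostly the weaker neighbour that was missing. Of 1568 adjacent parental pairs 1 to 5 kb apart, 567 had both sites found (36.2%), 722 had 1 (46.0%) and 279 had neither (17.8%). Where 1 of such a pair was found it was the stronger in 649 of 722 (89.9%), next to 899 of 1009 (89.1%) for pairs 5 to 20 kb apart. Clustered sites of deciles 1 to 5 were found in 39.4% (36.4 to 42.5%) of 1023 cases where their nearest neighbour was found and in 17.9% (15.3 to 20.8%) of 776 where it was not. Some of these neighbours lie in the same Afos site, and the part of this in the difference was not tested.

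Parental sites were also put in groups with gaps under 10 kb, and the share found was similar in large groups and in single sites. The 6466 sites alone in their group were found in at least 1 Afos list in 60.1% of cases. In the 109 groups of 5 or more sites, 61.6% of the 643 sites were found. Of these groups 97.2% kept at least 1 site and 8.26% kept all, counts that depend on the number of sites in a group. The median strength percentile was 67.7 in these groups and 43.6 among single sites.

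The largest groups differed in how much of them was found. A group of 11 sites on chromosome X (137040447 to 137079538) had 8 in both Afos lists, and the group of 9 on chromosome 17 that holds the strongest site (28649867 to 28659145) also had 8. A group of 9 on chromosome 4 (62996462 to 63023458) had 8 in replicate 1 and 6 in replicate 2. A second chromosome 17 group of 10 sites (44151229 to 44180076), with densities from 15.2 to 317, had 4 in both Afos lists and 9 in the 7438 GR list filed under untreated. The group of 9 on chromosome 8 (11249916 to 11273857) had 5 and 4 in the Afos lists and all 9 in that 7438 list.

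Parental GR sites at which ER was called in 7438 cells given E2 were found less often in Afos cells than others of the same strength. ER sites were taken from the list of 7438 cells given 100 nM E2 without Dex, which was not used to choose any GR site. Such an ER site overlapped 1190 of the 12084 parental GR Dex sites. At least 1 Afos Dex list held 54.2% (51.3 to 57.1%) of them and 61.2% (60.2 to 62.1%) of the 10894 sites without ER. The sites with ER were stronger, so the gap widened within deciles of strength. In the lowest decile 8.47% (2.81 to 18.7%) of 59 sites with ER and 27.5% (24.9 to 30.2%) of 1150 without were found. In the fifth decile the shares were 27.5% (19.1 to 37.2%) of 102 and 52.7% (49.7 to 55.7%) of 1106, and in the seventh 54.1% of 133 and 76.9% of 1075. The ER lists of Afos cells given E2 did not show this. Over 9 deciles, the share with ER among missing minus found sites averaged -0.747 and -0.799 points in them. It averaged 8.93 points with the 7438 ER list, which also has the format of the parental GR list. The same measure averaged 7.89 and 8.37 points with the 7438 GR and ER lists filed under untreated. Both have that format too, and their names contradict their labels. An excess among missing sites was thus not particular to the 7438 ER list with E2.

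The mean difference within deciles was -17.0 points, with -16.6 in replicate 1 and -14.5 in replicate 2, and it was negative in 10 of 10 deciles in each. It was -13.6 points at equal numbers of sites (8 of 10 deciles negative) and -20.3 points among sites with no other GR site within 5 kb. Spacing and ER presence moved together, since 12.7% of clustered and 6.15% of isolated sites had ER. The ER contrast was present in clustered and in isolated sites. In deciles 1 to 5, isolated sites without ER were found in 50.2% (47.1 to 53.3%) of 1052 cases and with ER in 26.5% (14.9 to 41.1%) of 49. Clustered sites without ER were found in 31.4% (29.2 to 33.8%) of 1622 cases and with ER in 18.1% (12.7 to 24.6%) of 177. The spacing contrast was present among sites without ER. Among sites with ER the intervals of clustered and isolated sites overlapped in deciles 1 to 5. In deciles 6 to 10 the shares were 79.1% of 369 and 78.9% of 57, at median strength percentiles of 79.0 and 67.6. Strength was not equal there, so these shares cannot decide whether sites with ER had a spacing contrast.

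**Figure D4:**
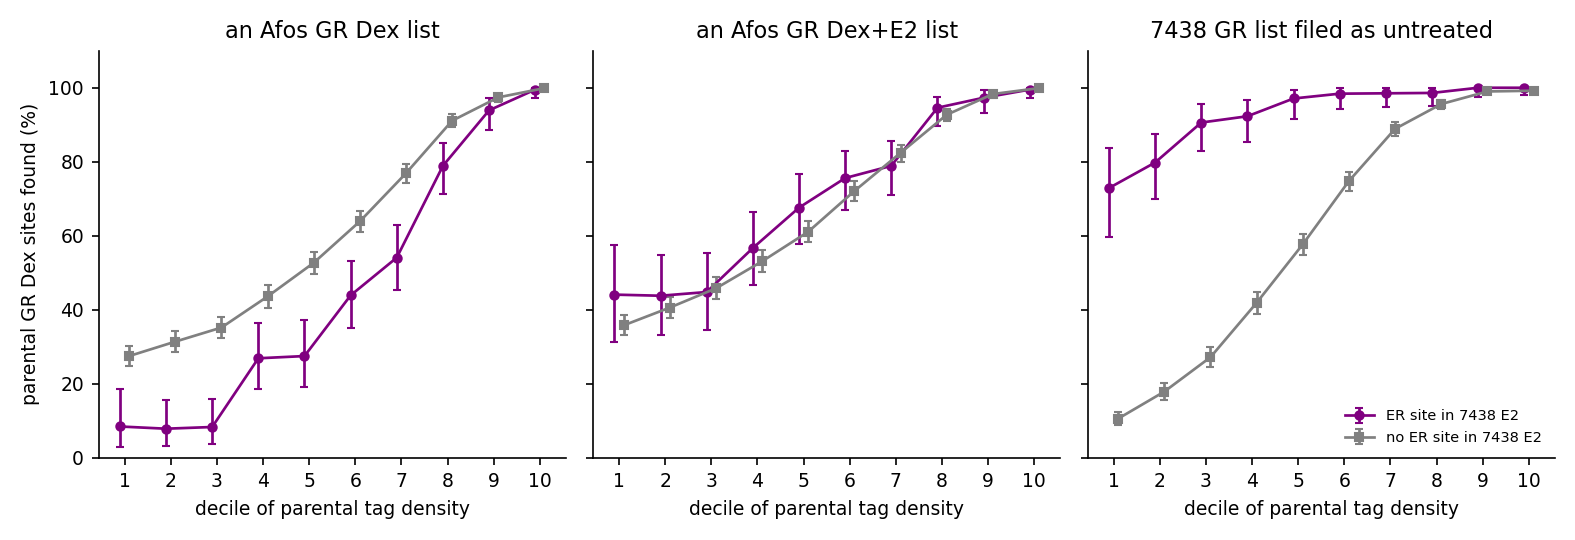
Share of parental GR Dex sites found (%, y axis) by decile of parental tag density (x axis), for sites with and without an ER site of 7438 cells given E2, in at least 1 Afos Dex list, at least 1 Afos Dex+E2 list, and the 7438 GR list filed under untreated. Bars are exact 95% intervals for counting; sites with ER lie below the others in the Afos Dex panel, near them in the Afos Dex+E2 panel and above them in the 7438 panel.

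When Afos cells were given E2 as well, this difference was not seen. An Afos Dex+E2 GR list held 76.1% (73.5 to 78.5%) of the parental GR sites with ER and 67.5% (66.6 to 68.4%) of those without, and the mean difference within deciles was 2.10 points. It was -0.856 points in Dex+E2 replicate 1 and 5.46 in replicate 2. The Dex+E2 and the Dex comparisons use the same parental list. The Afos Dex+E2 GR lists are also longer, with 14160 and 10309 sites against 8873 and 5136 with Dex. List length thus differs along with E2, and its part in this result was not tested. In the 7438 GR list filed under untreated, whose name says both hormones, sites with ER were found 31.5 points more often within deciles, and 1130 of the 1190 sites with ER were in it.

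The parental GR sites with ER divided further by whether ER itself was called there in Afos cells given E2. Among sites of deciles 1 to 5 with ER in an Afos E2 list, 47 of 151 (31.1%, 23.8 to 39.2%) were in an Afos GR Dex list and 133 of 151 (88.1%, 81.8 to 92.8%) in an Afos GR Dex+E2 list. Where ER was in no Afos E2 list, 29 of 299 (9.70%, 6.59 to 13.6%) were in an Afos Dex list and 103 of 299 (34.4%, 29.1 to 40.1%) in a Dex+E2 list. Sites without ER in 7438 stood at 38.0% (36.7 to 39.3%) and 47.2% (45.9 to 48.5%) of 5592. The median strength percentiles of these 3 sets were 29.3, 27.0 and 24.8. Of these sets, the weak GR sites with ER in 7438 cells and no ER call in Afos cells were the least often found with Dex. In deciles 6 to 10 the Dex shares in the same order were 88.0% of 242, 71.5% of 498 and 85.6% of 5302.

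Among the sites found in all 3 lists, ranks were similar but closer between the Afos replicates. Across these 4791 sites Spearman's rho of tag density was 0.702 between parental and Afos replicate 1, 0.741 between parental and replicate 2, and 0.886 between the Afos lists. Sites of a list share its library, so rho is given as a description. Ranked among these shared sites, those with ER stood a median of 7.39 percentile points lower in Afos than in the parental list (-7.82 in replicate 1, -6.18 in replicate 2), and 25.3% of the 423 were higher in Afos. The 4368 without ER had a median shift of 0.459 points, with 51.8% higher. Isolated sites had a median shift of 3.50 points and clustered ones -1.65 points. These sets start at different parental ranks (median percentiles 70.4 with ER, 47.9 without, 61.4 clustered, 29.4 isolated). Compared within deciles of parental rank among the shared sites, a comparison added after the data were seen, the shift of sites with ER differed from that of sites without by a mean of -10.8 points (-10.6 in replicate 1, -10.5 in replicate 2). It was negative in 10 of 10 deciles, and -10.1 points over the 8 deciles with at least 20 sites of each kind. Clustered and isolated sites differed there by -0.825 points (0.417 and 0.888 in single lists), so no difference in shift by spacing was seen at equal rank.

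Single sites moved further in rank. A site on chromosome 2 (139745602 to 139745752) had a parental density of 65.1, at percentile 71.0 of the shared sites, and stood at percentiles 3.74 and 8.70 in the Afos lists. A site on chromosome 10 (107004377 to 107004527), with a parental density of 89.3, went from percentile 81.8 to 13.0 and 24.6. A site on chromosome 2 (50545755 to 50545905, density 105) went from percentile 85.3 to 32.8 and 13.8. All 6 sites whose mean percentile was lowest relative to the parental one were in the 7438 GR list filed under untreated, with densities from 38.4 to 77.7. These sites too lie in deciles 9 and 10 of the parental list, of which that list held 99.1% and 99.3%.

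In the other direction, a chromosome 4 site (34665179 to 34665329) with a parental density of 10.8, at percentile 0.835, lay in an Afos site at percentiles 86.2 and 73.8. A second parental site 0.069 kb away lies in that same Afos site, so this is 1 Afos binding site counted under both. A chromosome 1 site (89953375 to 89953525) with a parental density of 16.2 went from percentile 9.0 to 91.9 and 83.5. A chromosome 11 site (48714857 to 48715007, density 11.7) went from percentile 1.96 to 78.7 and 73.9. All 6 parental sites of this kind, which include both of that chromosome 4 pair, were in both Afos Dex+E2 GR lists. These lists held 97.9% and 98.5% of all parental sites in both Afos Dex lists. The site on chromosome 6 (149086611 to 149086761) was also in ER lists of both cell lines given E2. Another parental site lies 0.122 kb from it, and whether both lie in 1 Afos site was not tested.

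How many Afos Dex sites were absent from the parental list depended on the length and limits of the lists. The Afos lists shared 4961 sites, made by joining overlapping sites of both, and 390 of these were absent from the parental list (7.86%, 7.13 to 8.65%). With equal numbers of sites from each list the share was 21.6%, and with the lower limits of the parental list applied it was 2.66%. In single lists 1958 of 8873 replicate 1 sites (22.1%) and 465 of 5136 replicate 2 sites (9.05%) were absent, a mean of 15.6% ± 9.20 (SD, n = 2). Of the absent replicate 1 sites 392 of 1958 were in replicate 2, while of the absent replicate 2 sites 398 of 465 were in replicate 1.

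These absent sites were mostly weak in Afos cells. In the lowest decile of shared Afos sites 66.2% (61.9 to 70.3%) were in the parental list, in the second 83.7%, in the fifth 96.0% and in the ninth 100%. The lower limits of the lists touch this result, since 60.1% of the absent replicate 1 sites and 77.2% of the absent replicate 2 sites lie under the lowest tag density or z-score of the parental list. Among Afos sites above both limits 12.2% and 2.96% were absent. Tag density and z-score may be scaled differently between the lists, so these shares hold only if the scales are alike. The 390 absent sites were also narrower, with a median of 600 bp against 704 bp for shared Afos sites in the parental list. They lay a median of 68.5 kb from the nearest parental site. Of them 9.74% had one within 5 kb and 89.2% within 500 kb.

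The strongest Afos site absent from the parental list lies on chromosome 11 (3081580 to 3082249), with densities of 137 in replicate 1 (rank 136) and 54.1 in replicate 2 (rank 381). It stands 27.6 kb from the strongest parental site that both Afos lists lack, described above, and 8.17 kb from its nearest parental site. A chromosome 1 site (92344274 to 92344674, densities 51.6 and 20.4) is 0.485 kb from a parental site and counts as absent only because the sites do not overlap. A site on chromosome 11 (95120399 to 95121124, densities 47.3 and 20.5) has no parental site within 69.1 kb and was in both Afos Dex+E2 GR lists. A chromosome 3 site (65331582 to 65332307, densities 44.8 and 17.8) was also in both Afos E2 lists of ER and in both Afos Dex+E2 lists of ER and of GR. It was in a list of parental cells too, the 7438 ER list filed under untreated, with a density of 61.5. The name of that ER list contradicts its label, so the call is not read as ER binding without hormone.

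Chromosome X stood apart in both directions. On it 117 of 162 parental sites (72.2%, 64.7 to 79.0%) were in at least 1 Afos list, and on the other chromosomes the share ran from 55.7% to 64.8%. Of the 100 shared Afos sites on X, 21 were absent from the parental list (21.0%), and elsewhere between 2.88% and 11.3%. X also had the largest share of isolated parental sites (37.7%, elsewhere 9.74% to 20.5%), a low median strength percentile (37.4), and the smallest share in the 7438 GR list filed under untreated (51.2%, elsewhere 57.4% to 67.9%). The part of these features in the X values was not tested. Leaving X out moved the share of parental sites found from 60.5% to 60.3%.

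Other lists of the series carried the same classes of site. The 7438 GR list filed under untreated held 83.2% (82.1 to 84.2%) of parental sites in both Afos lists, 58.1% of those in 1, and 47.1% (45.7 to 48.5%) of those in neither. The Afos Dex+E2 GR lists held 16.5% and 19.9% of the parental sites in neither Dex list, and 97.9% and 98.5% of those in both. GR lists of Afos cells without hormone held 1.11% and 2.50% of the parental sites in both Dex lists. Sites in both Afos lists were stronger than those in neither (median tag densities 41.8 and 14.8). Within deciles the 7438 GR list held missing sites (in neither) more often than found ones in 8 of the 9 compared. The mean difference over the 9 was 7.89 points. In the fifth it held 69.2% of 597 missing and 53.0% of 611 found sites. In the eighth, the other way round, it held 95.2% of the 125 missing sites and 96.0% of the 1084 found ones. There the Afos Dex+E2 lists held 22.4% and 47.2% of the missing and 89.4% and 95.9% of the found sites. Eighth-decile parental sites missing from both Afos Dex lists were thus nearly always in the 7438 GR list filed under untreated, as were found ones. In the Afos Dex+E2 lists the missing sites were called less often than found ones. These lists share cells and format with the Dex lists that lack them.

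**Figure D5:**
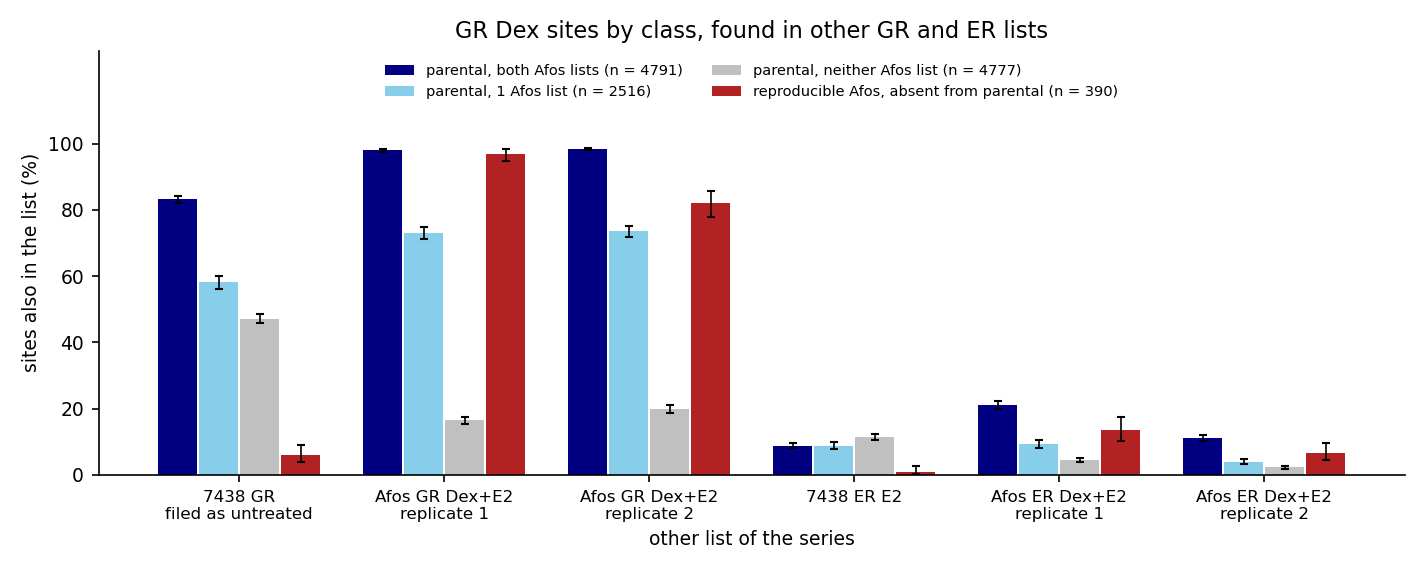
Share of sites also present in other lists (%, y axis) for 4 classes of GR Dex site (colours) and 6 lists of the series (x axis, 1 GR and 1 ER list of 7438 cells and 4 of Afos cells). Bars start at 0 and whiskers are exact 95% intervals for counting; the 390 Afos sites absent from the parental Dex list reach 96.9% and 82.1% in the Afos Dex+E2 GR lists and 6.15% in the 7438 GR list filed under untreated.

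The Afos sites absent from the parental list had the opposite profile. Afos Dex+E2 GR lists held 378 (96.9%, 94.7 to 98.4%) and 320 (82.1%, 77.9 to 85.7%) of the 390. They held 98.0% and 98.4% of the shared Afos sites that were in the parental Dex list, so such recall is not particular to the 390. The 7438 GR list filed under untreated held 24 (6.15%, 3.98 to 9.02%), against 84.2% (83.1 to 85.2%) of the shared Afos sites that were in the parental Dex list. The GR lists of Afos cells without hormone held 4 and 5 of the 390, but these lists have only 95 and 315 sites. Of the 390, 53 (13.6%) and 26 (6.67%) were in the Afos Dex+E2 lists of ER, and 4 (1.03%) in the 7438 ER list with E2. Among the shared Afos sites in the parental Dex list these shares were higher, at 21.6%, 11.8% and 10.9%. The Afos GR lists with E2 alone held 8 and 7 of the 390 (2.05% and 1.79%), against 0.897% and 0.306% of those shared sites. Sites absent from the parental Dex list were thus called again in Afos cells given Dex+E2, and seldom in the 7438 GR list filed under untreated. The 390 were chosen for absence from a 7438 list. They were also weaker than the shared Afos sites in the parental list, at median strength percentiles of 26.8 and 63.1. The shares above were not compared at equal strength, so the part of strength in them was not tested. Of parental Dex sites in the lowest decile, the 7438 GR list filed under untreated held 13.6%. The lists of each cell line also share their format, so the part of format in this profile cannot be told apart from that of the cell line.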

How the data were processed

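GR ChIP-seq site lists of 7438 and 7438 Afos cells were analysed, with the other lists as further readouts. Per the submitters' processing notes, the build is mm9 and CASAVA 1.8 was used. Which aligner, site caller, control and threshold were applied is not given in the sources used here. Per the file headers, the deposited lists hold for each site a highest and an average tag density, a signal whose scaling is not stated, and a z-score, the authors' score. The p-value that the deposited Afos lists also hold was not used. Sequencing depth is unknown.

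Groups came from the sample labels. For the 7438 GR list filed under untreated, label and name disagree, and both are given. Label and name disagree for the 7438 ER list filed under untreated as well, and for the 7438 lists filed under Dex+E2. Ranks, overlaps (1 bp), edge distances and exact (Clopper-Pearson) intervals were computed with Python 3.11.15, NumPy 2.4.6, SciPy 1.17.1, pandas 2.3.3 and matplotlib 3.10.9, and tested on simulated lists. Named sites are the 6 strongest in both Afos lists, in neither and in Afos only, the 6 with the largest rank shift each way, and the 5 groups with most sites. The members, classes and lists were chosen with earlier results of these data known. Alternatives covered the overlap rule, a gap of 500 bp, widths, lower limits, list length, each Afos list, and spacing within strength. Coordinates are printed as deposited; whether they count from 0 or 1 is not stated. No genome of this build was used here, so gene names, motifs and sequences are not given.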

Additional observations from a re-analysis of the deposited data

How the results depend on the processing

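The share of parental sites found in at least 1 Afos list (60.5%) was 80.4% with equal numbers of sites, 39.6% when both lists were required, and 40.3% to 59.8% in single lists. The gain in retention from the lowest to the highest decile (73.3 points) was 51.2, 91.6 and 73.5 to 91.4 points under the same changes, and stayed positive under all 12 alternatives run. The share of shared Afos sites absent from the parental list (7.86%) was 21.6% with equal numbers, 9.05% to 22.1% in single lists and 2.66% with the parental lower limits. The pooled difference between clustered and isolated sites (-1.80 points) changed sign with a 500 bp gap (2.11), the parental limits (1.31) and both lists required (1.15), and was -1.25 to 0.601 in single lists. It was -8.69 with 150 bp sites, -13.9 within 3 classes of strength and -15.1 within deciles, the last chosen after the data were seen. The cause of these shifts was not tested.

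The difference within deciles ranged from -7.83 to -21.2 points over the alternatives run, and the ER difference from -13.6 to -20.3 over those with Dex lists; the deciles with ER were also chosen after the data were seen. Equal numbers leave fewer sites per decile and drop the weakest. No paired analysis was possible because the parental group has 1 list, so the groups share fewer than 2 replicate numbers. Single sites near the lower limits cannot be called absent from the cells, since read totals are unknown.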
